A study of Mus musculus with 16 samples.

Results

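The colony-stimulating factors and their receptors were followed as 8 genes in an RNA sequencing study of mouse macrophages. The 3 ligand genes are Csf1, Csf2 and Csf3, and the 5 receptor chain genes are Csf1r, Csf2ra, Csf2rb, Csf2rb2 and Csf3r. They were taken from the deposited count table by name, through their Entrez gene numbers. The members were chosen with earlier results of these data known. All 8 of the 8 were present among the 27179 genes of the table, and all 8 passed the filter on low counts that left 12589 genes for testing. The cells were iBMDM MyD88-AGF, a line of immortalised bone marrow-derived macrophages, and every group carried the same genotype label, MyD88-AGF WT. Responders were cells given lipopolysaccharide (LPS, the bacterial glycolipid that TLR4 senses) at 10 ng/mL for 6 h and gated for high side scatter, and bystanders were cells of that treatment gated for low side scatter. The LPS pool was treated alike but passed through the sorter without a gate, and untreated cells were also left ungated. Each of the 4 groups had 4 libraries made from an equal number of sorted cells. All cells came from a single line, and the ungated cells were collected after the gated ones. Collection order and gating thus cannot be told apart when a gated group is set against the LPS pool or untreated cells. The series asks what mediates the assembly of the myddosome, the complex that MyD88 forms below Toll-like receptors.

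Colony-stimulating factors are secreted proteins that keep myeloid cells alive and drive their division, maturation and activation. CSF1 (M-CSF) acts through CSF1R, a receptor tyrosine kinase on which macrophages depend. CSF2 (GM-CSF) binds an alpha chain, CSF2RA, which pairs with a signalling beta chain that recruits the kinase JAK2 and the factor STAT5. Mice have a pair of such beta chains, the common chain CSF2RB, shared with IL-3 and IL-5 receptors, and CSF2RB2, which serves IL-3. CSF3 (G-CSF) acts through CSF3R, best known in neutrophils. Macrophages that sense LPS transcribe the ligand genes through NF-kappaB and other factors, and the Csf2 and Csf3 messages carry AU-rich elements that bind decay proteins such as tristetraprolin.

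The libraries held 15287344 to 25193162 counts. Levels are CPM from edgeR, the count of a gene as a rate on the library size after scaling, with means ± SD taken over the 4 libraries of a group. Folds, standard errors (SE) and adjusted p values are those of edgeR's quasi-likelihood test across the 12589 genes, and a change was called where the adjusted p lay below 0.05. Nothing in the labels says whether replicates came from separate cultures, so the p values speak only to library-to-library spread, which may be technical. All 8 of the 8 listed macrophage markers were detected, with summed levels of 4452 to 4520 CPM in responders, 3301 to 3330 CPM in bystanders, 4159 to 4214 CPM in the LPS pool and 2663 to 2695 CPM in untreated cells. A mean of at least 1 CPM was reached by 7 of the 8 in responders and by all 8 in each other group. The T cell and NK cell markers Cd3e, Cd3g and Ncr1 had no read in any library. In 6 of the 16 libraries (responder 1, bystander 3 and 4, LPS pool 3 and 4, and untreated 1), the 11 of 15 listed neural genes that had under 5 reads in at least 1 library summed to more than 4 CPM. Because these were bulk samples, fewer cells transcribing a gene and less RNA per cell cannot be told apart.

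The ligand genes Csf2 and Csf3 and the receptor gene Csf3r showed the largest differences of the 8 genes between responders and bystanders, whereas Csf1 and Csf2rb2 were slightly lower in responders and Csf1r was lower too. In responders against bystanders, 5 members were higher and 3 were lower, and the adjusted p of each was under 0.05. Of all genes tested, 70% were called in that comparison (34.7% higher and 35.3% lower), so the count of called members alone is near what most genes showed. The libraries of responders and bystanders did not overlap for any of the 8, as for 63.9% of all genes. The median absolute log2 fold change was 0.55 for the members and 0.30 for all genes. In the LPS pool against untreated cells, 6 members rose, Csf1r fell and Csf2rb2 was not called, against 71.9% of all genes called (34.1% higher and 37.8% lower), and 7 members did not overlap, against 64.9% of all genes. The corresponding median absolute log2 fold changes were 1.48 for the members and 0.35 for all genes. In responders against untreated cells 7 members rose and Csf1r fell, with 75% of all genes called (36.5% higher and 38.5% lower), and all 8 did not overlap, against 69.2% of all genes. In bystanders against untreated cells 6 rose, Csf1r fell and Csf2 was not called, with 67.1% of all genes called (34.1% higher and 32.9% lower), and 6 did not overlap, against 60.7% of all genes. These comparisons share libraries, so their values stand side by side and are not independent.

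**Figure D1:**
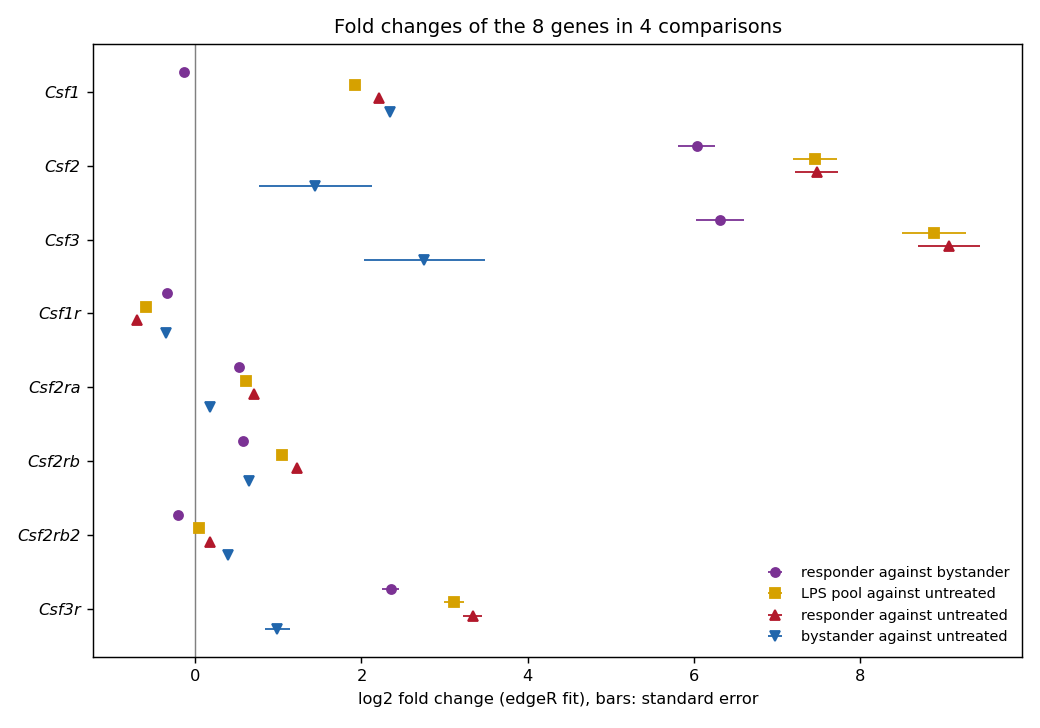
Log2 fold changes from the edgeR fit (x axis) for each of the 8 genes (y axis) in 4 comparisons, with bars for the standard error. Csf2, Csf3 and Csf3r lie far to the right for the comparisons of responders and of the LPS pool, while Csf1 lies near 0 only for responders against bystanders and Csf1r lies left of 0 in all 4.

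Csf2 encodes GM-CSF, and its reads came almost entirely from responders and the LPS pool. Responder libraries 1 to 4 held 249, 216, 240 and 230 Csf2 reads, against 1, 0, 7 and 6 reads in bystander libraries 1 to 4. The LPS pool libraries held 195, 237, 162 and 170 reads, against 0, 0, 3 and 2 reads in untreated libraries. No responder or LPS pool library came near any bystander or untreated library. The responder level was 11.3 ± 0.69 CPM and the bystander level 0.144 ± 0.135 CPM, with 3 counts worth 0.116 to 0.211 CPM in a library. The summed reads, scaled for library size, stood at a ratio of 67.9 in responders to bystanders (95% counting interval 40.2 to 125; adjusted p = 5.33e-32) and of 195 in the LPS pool to untreated cells (83.2 to 602; adjusted p = 7.3e-33). The wide interval of the second ratio reflects the 5 untreated reads. Csf2 passed the filter on low counts through responders and the LPS pool, and it did not pass when bystanders and untreated cells were taken alone. The fitted log2 fold of responders over bystanders was 8.31 without bystander 3 and 4 (adjusted p = 3.65e-26), against 6.04 with all libraries. Bystanders and untreated cells were not separated (ratio 2.92, 0.993 to 10.4; adjusted p = 0.0564), and this value depended on single libraries: it was called without bystander 1 (adjusted p = 0.0319), without bystander 2 (0.016) and without untreated 3 (0.0139). Leaving out untreated 3 also moved the fitted log2 fold of the LPS pool over untreated cells to 8.30, against 7.46 with all libraries. Between responders, at 11.3 ± 0.69 CPM, and the LPS pool, at 11.1 ± 0.79 CPM, no difference was called (ratio 1.02, 0.922 to 1.12; adjusted p = 0.918).

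Csf3 encodes G-CSF and was the ligand gene with the highest level per kilobase of exon in responders. Its levels in responder libraries were 1267, 1314, 1314 and 1279 CPM, against 2.35, 2.61, 25.6 and 26.5 CPM in bystander libraries. The LPS pool libraries held 1117, 1137, 1134 and 1185 CPM, against 2.54, 2.43, 2.57 and 2.09 CPM in untreated libraries. Bystander libraries thus split into a low and a high pair, and the low pair overlapped the untreated libraries. Csf3 was 79.7-fold higher in responders than in bystanders (log2 6.32 ± 0.29 SE; adjusted p = 1.27e-10) and 476-fold higher in the LPS pool than in untreated cells (log2 8.89 ± 0.38 SE; adjusted p = 5.38e-11). Across all bystander libraries Csf3 was called higher than in untreated cells, 6.76-fold at adjusted p = 0.00443, although the groups overlapped.

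That call rested on bystander libraries 3 and 4. Without both, a choice made after the data were seen, the log2 difference between bystanders and untreated cells was 0.04 (adjusted p = 0.859), and the log2 fold of responders over bystanders was 9.04 in place of 6.32. Libraries 3 and 4 exceeded libraries 1 and 2 by 10.5 times for Csf3 and 9.04 times for Csf2 (13 reads against 1), but by 1.25 times for Csf3r and 0.978 to 1.05 times for the other 5 members. The 2 libraries also held the neural genes, at 7.14 and 8.12 CPM in bystander 3 and 4, against 0.573 and 0.546 CPM in bystander 1 and 2. Responder 1, LPS pool 3 and 4 and untreated 1 held them as well, at 7.57 to 13.1 CPM, and untreated 1 had 2.54 CPM of Csf3, within the untreated range. The whole neural list, of which Mobp had no read, summed to 367 to 381 CPM in bystanders and 403 to 434 CPM in untreated cells. The summed level of 5 listed fibroblast genes was 76.8 CPM in bystander 3 but 6.56 CPM in bystander 4. Group ranges were 8.59 to 30.2 CPM in responders and 1.94 to 76.8 CPM in bystanders. They were 3.04 to 105 CPM in the LPS pool and 7.02 to 30.8 CPM in untreated cells. The part of either set of transcripts in the split was not tested. The 3 genes whose group means were most like Csf3 showed the same split: Il1b had 7.79, 9.03, 64.1 and 65.1 CPM in bystander libraries 1 to 4, and the ratio of the later pair to the earlier one was 7.72 for Il1a, 7.69 for Il1b and 7.61 for Lcn2. For the 3 genes most like Csf2 that ratio was smaller, at 2.07 for Cxcl2, 3.45 for Saa3 and 3.18 for Slc7a2, against 9.04 for Csf2 itself.

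The AU-rich stretches of the ligand messages are shown because Csf2 and Csf3, the members with the largest differences, hold more of them than any receptor member. Each line gives 30 bases of the 3′ untranslated region in the sense of the message, with every ATTTA in capitals, from GENCODE M21 transcripts on GRCm38.
Csf2: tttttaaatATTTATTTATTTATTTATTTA
Csf3: gatagtttATTTAtctctATTTAatATTTA
Csf1: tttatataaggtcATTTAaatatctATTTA
They lie at chr11:54247329-54247358 on the minus strand (Csf2), chr11:98702984-98703013 on the plus strand (Csf3) and chr3:107741109-107741138 on the minus strand (Csf1). The Csf2 window holds 5 overlapping ATTTA, a density that 0.211% of 20361 genes reached in some 30-base window of their 3′ untranslated region. The Csf3 window holds 3, reached by 2.26% of genes, and the Csf1 window 2, reached by 17.1%. Over the whole region, ATTTA occurs 9 times in 317 bases in Csf2, 6 times in 669 bases in Csf3 and 4 times in 2111 bases in Csf1. Among the receptor genes, Csf1r has 3 and Csf2ra, Csf2rb, Csf2rb2 and Csf3r have 0. The letters TTATTTATT occur 4 times in Csf2 and in none of the other members, and in 7% of all these regions. A match describes the letters of the message and says nothing of its decay here.

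Csf1 encodes M-CSF, and, like Csf2rb2, it was highest in bystanders of the 4 groups. Its levels were 196, 193, 189 and 196 CPM in responder libraries, against 212, 219, 211 and 210.5 CPM in bystander libraries. In the LPS pool they were 164, 164, 151 and 156 CPM, against 41.3, 43.2, 40.8 and 41.9 CPM in untreated libraries. None of the 4 groups overlapped, and the order was bystander, responder, LPS pool, untreated. Csf1 was 1.1-fold lower in responders than in bystanders (log2 -0.14 ± 0.02 SE; adjusted p = 1.6e-06). It was 3.8-fold higher in the LPS pool than in untreated cells (adjusted p = 9.17e-53), 4.62-fold higher in responders (adjusted p = 4.7e-57) and 5.09-fold higher in bystanders (adjusted p = 1.6e-58). Measured as the change in mean CPM from untreated cells, bystanders made 113% of the responder change for Csf1, with single libraries at 111% to 117%. The same measure was 0.75% for Csf2 (single libraries at -0.529% to 1.89%) and 0.918% for Csf3 (-0.0046% to 1.87%). All 5 of the 5 listed dendritic cell markers had reads, and their summed level was also highest in bystanders, at 4.28 to 5.38 CPM in responders, 7.14 to 8.49 CPM in bystanders, 3.37 to 5.42 CPM in the LPS pool and 0.498 to 0.926 CPM in untreated cells. Of these markers, only 1 reached a mean of at least 1 CPM in each LPS-treated group, and 0 did in untreated cells. Their part in the Csf1 difference was not tested. Csf1 and Csf2rb2 were also the 2 members for which both gated groups lay above the ungated LPS pool. For the other 6 the LPS pool lay between the gated groups.

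The promoter of Csf1 is shown because it is the ligand gene that rose in both gated groups with no overlap with untreated cells. The line gives the 250 bases before the RefSeq start on GRCm38.p6, chr3:107760470-107760719 on the minus strand, with a match to the kappaB motif in capitals.
Csf1: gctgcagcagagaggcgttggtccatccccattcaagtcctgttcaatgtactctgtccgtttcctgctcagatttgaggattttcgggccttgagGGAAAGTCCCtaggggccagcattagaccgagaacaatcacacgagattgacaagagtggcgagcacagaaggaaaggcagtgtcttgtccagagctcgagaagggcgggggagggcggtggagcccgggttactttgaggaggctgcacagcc
The match begins 154 bases before the start and reads GGAAAGTCCC, or GGGACTTTCC on the other strand. Windows around the RefSeq start were available for 5 members (Csf1, Csf2, Csf2ra, Csf2rb2 and Csf3r), and both strands were searched. The kappaB motif occurs once each in the Csf1 and Csf3r windows, in none of the other 3, and in 8.18% of 27025 promoter windows of the same length. The AP-1 letters TGANTCA occur in none of the 5, and in 7.93% of all promoters. The GAS letters TTCNNNGAA have 1 match, in the Csf2rb2 window, and occur in 8.47% of all promoters. The C/EBP letters TTNNGNAA have 1 match each in the Csf2 and Csf2ra windows and 2 in that of Csf2rb2. They occur in 40.7% of all promoters. The ETS letters AGGAAG, of the kind that the myeloid factor PU.1 binds, occur 4 times in the Csf3r window and 2 times each in those of Csf2rb2 and Csf2ra, and in 35.1% of all promoters. The Csf2 window begins from a predicted upstream start, so it does not cover the region before the GENCODE start.

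**Figure D2:**
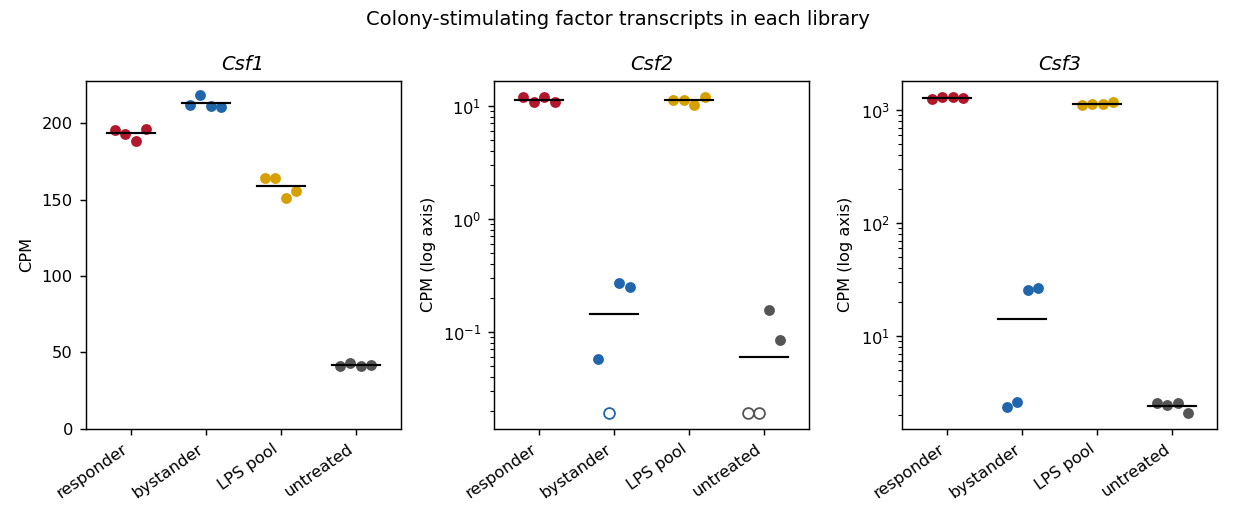
CPM of Csf1 (linear axis), Csf2 and Csf3 (log axes) in each library of the 4 groups, with points for libraries and bars for group means; open symbols mark libraries with 0 Csf2 reads, drawn at the lower edge. The 4 responder libraries lie below the 4 bystander libraries for Csf1 and far above them for Csf2 and Csf3, and bystander libraries form 2 pairs for Csf3.

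Csf1r encodes the receptor tyrosine kinase for CSF1, and it was the only member that fell in responders, bystanders and the LPS pool alike when each was set against untreated cells. Its levels were 554, 543, 557 and 548 CPM in responder libraries, against 707, 693, 696 and 700 CPM in bystander libraries. The LPS pool libraries held 603, 605, 587 and 575 CPM, against 889.9, 884, 911 and 893 CPM in untreated libraries. The order was untreated, bystander, LPS pool, responder, with no overlap between any neighbours. Csf1r was 1.27-fold lower in responders than in bystanders (log2 -0.34 ± 0.02 SE; adjusted p = 2.8e-24) and 1.51-fold lower in the LPS pool than in untreated cells (log2 -0.59 ± 0.02 SE; adjusted p = 1.62e-36). It was also lower than in untreated cells by 1.62-fold in responders (adjusted p = 1.28e-40) and by 1.28-fold in bystanders (adjusted p = 2.73e-25). Bystanders made 56.8% of the responder change, with single libraries at 54.5% to 58.5%.

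Csf2ra, the alpha chain that binds GM-CSF, was higher in responders, at 194 ± 7.34 CPM, than in bystanders, at 134 ± 4.73 CPM (1.44-fold; adjusted p = 1.44e-25). It was likewise higher in the LPS pool, at 181 ± 3.68 CPM, than in untreated cells, at 119 ± 4.36 CPM (1.53-fold; adjusted p = 5.46e-28). Responder libraries ranged from 186 to 203 CPM, bystander libraries from 128 to 139 CPM, LPS pool libraries from 177 to 186 CPM and untreated libraries from 115 to 125 CPM. Responders and the LPS pool thus nearly touched, while both lay well above bystanders. Bystanders made 20.4% of the responder change, 1.13-fold over untreated cells (adjusted p = 1.7e-07), a difference that turned to a log2 value of -0.01 when scaled by library totals alone.

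Csf2rb, the common beta chain, followed the same order as Csf2ra. Its levels were 169, 164, 172 and 170 CPM in responder libraries, against 111, 111, 118 and 112 CPM in bystander libraries. The LPS pool libraries held 149, 149, 152 and 144 CPM, against 73.0, 71.0, 70.8 and 73.7 CPM in untreated libraries. No groups overlapped. Csf2rb was 1.49-fold higher in responders than in bystanders (log2 0.58 ± 0.03 SE; adjusted p = 3.56e-28), 2.06-fold higher in the LPS pool than in untreated cells (log2 1.04 ± 0.03 SE; adjusted p = 6.12e-40) and 1.57-fold higher in bystanders than in untreated cells (adjusted p = 9.61e-29).

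Csf2rb2, the IL-3-specific beta chain of mice and the neighbour of Csf2rb on chromosome 15, went the other way between the gated groups. Its levels were 76.1, 79.8, 78.1 and 74.8 CPM in responder libraries, against 89.2, 90.5, 92.8 and 85.1 CPM in bystander libraries. In the LPS pool they were 70.0, 73.0, 69.0 and 67.2 CPM, against 66.0, 67.0, 71.2 and 68.2 CPM in untreated libraries. The bystander libraries were the highest, and the LPS pool and untreated libraries overlapped. Csf2rb2 was 1.16-fold lower in responders than in bystanders (log2 -0.21 ± 0.03 SE; adjusted p = 7.85e-08) and was not called in the LPS pool against untreated cells (log2 0.04 ± 0.04 SE; adjusted p = 0.309). It was 1.31-fold higher in bystanders than in untreated cells (adjusted p = 2.96e-16) and 1.13-fold higher in responders than in untreated cells (adjusted p = 3.49e-06). Scaled by library totals alone, the last became a log2 value of -0.20 (adjusted p = 2.54e-07), and the LPS pool against untreated cells became -0.29 (adjusted p = 8.41e-11).

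The near-identity of the 2 beta chain genes is shown because reads from one could be counted to the other. Each line gives 60 bases of coding sequence from coding position 24, with the bases that differ in capitals, from GENCODE M21 on GRCm38.
Csf2rb: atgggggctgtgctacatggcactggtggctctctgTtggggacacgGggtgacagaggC
Csf2rb2: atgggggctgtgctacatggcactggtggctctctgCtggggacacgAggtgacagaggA
They lie at chr15:78335230-78335289 on the plus strand (Csf2rb) and chr15:78298147-78298206 on the minus strand (Csf2rb2). Over 2631 aligned coding bases, 2505 were identical (95.2%). Of all 100-base stretches of the Csf2rb transcript 6.96% occur in the Csf2rb2 transcript, and of those of Csf2rb2 7.2% occur in Csf2rb. The same shares were 18.4% and 19.0% for stretches of 50 bases, and 3.47% and 3.59% for stretches of 150 bases. How the authors treated reads that fit several places is not given in the sources used here. The levels of these 2 genes are therefore uncertain, to an extent that was not measured.

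The balance between the beta chains was measured as the share of Csf2rb in the reads of both, a measure chosen after the values were seen. It was 68.9%, 67.3%, 68.8% and 69.5% in responder libraries, against 55.5%, 55.0%, 56.0% and 56.7% in bystander libraries. In the LPS pool it was 68.0%, 67.1%, 68.8% and 68.2%, against 52.5%, 51.5%, 49.8% and 51.9% in untreated libraries. The share does not depend on library scaling, and only responders and the LPS pool overlapped. The difference was 12.8 percentage points for responders against bystanders, 16.6 for the LPS pool against untreated cells and 4.39 for bystanders against untreated cells, each at p = 0.0286 in a two-sided exact permutation test, the smallest p that 4 against 4 libraries allow. For responders against bystanders this p was fixed in advance, because Csf2rb was higher and Csf2rb2 lower in responders with no overlap in either gene. For the LPS pool and for bystanders against untreated cells, the library ranges of both genes likewise left no room for the shares to overlap. These p values therefore add no support beyond the ranges already seen. Responders exceeded the LPS pool by 0.587 points (exact permutation p = 0.343). The summed level of both chains was 246 ± 2.61 CPM in responders and 202 ± 6.13 CPM in bystanders, and 218 ± 4.79 CPM in the LPS pool and 140 ± 2.01 CPM in untreated cells.

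**Figure D3:**
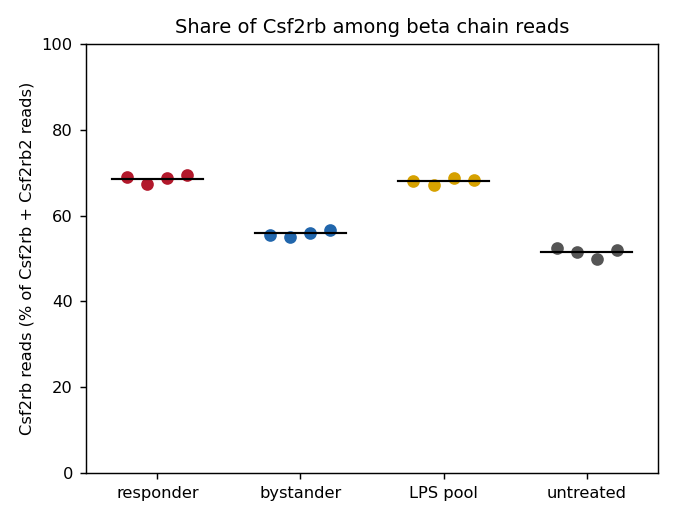
Share of Csf2rb among the reads of Csf2rb and Csf2rb2 in percent (y axis) in each library of the 4 groups, with bars for group means. Responder and LPS pool libraries sit between 67.1% and 69.5%, above bystander libraries at 55.0% to 56.7% and untreated libraries at 49.8% to 52.5%.

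Csf3r encodes the G-CSF receptor and had the largest fold of the receptor genes. Responder libraries held 315, 307, 321 and 361 Csf3r reads, against 56, 36, 78 and 90 reads in bystander libraries. The LPS pool libraries held 241, 288, 206 and 195 reads, against 35, 37, 33 and 31 reads in untreated libraries. As levels these were 15.7 ± 0.85 CPM in responders and 3.03 ± 0.63 CPM in bystanders, and 13.5 ± 0.50 CPM in the LPS pool and 1.56 ± 0.18 CPM in untreated cells, with no overlap between groups. Csf3r was 5.11-fold higher in responders than in bystanders (log2 2.35 ± 0.10 SE; adjusted p = 1.47e-29), 8.69-fold higher in the LPS pool than in untreated cells (log2 3.12 ± 0.12 SE; adjusted p = 1.8e-32) and 1.98-fold higher in bystanders than in untreated cells (log2 0.98 ± 0.15 SE; adjusted p = 6.95e-08). Unlike Csf3, the level in bystander 1 and 2 alone, 3.21 and 2.18 CPM, lay above every untreated library, the highest of which was 1.70 CPM. Of 10 listed neutrophil markers, S100a9 and Ly6g had no read in any library, and a mean of at least 1 CPM was reached by 2 of the 10 in responders, by 1 in the LPS pool and by 0 in bystanders or untreated cells. The 10 summed to 4.28 to 7.19 CPM in responders, 0.630 to 0.849 CPM in bystanders, 4.50 to 5.70 CPM in the LPS pool and 0.514 to 0.630 CPM in untreated cells. Their part in the Csf3r difference was not tested.

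**Figure D4:**
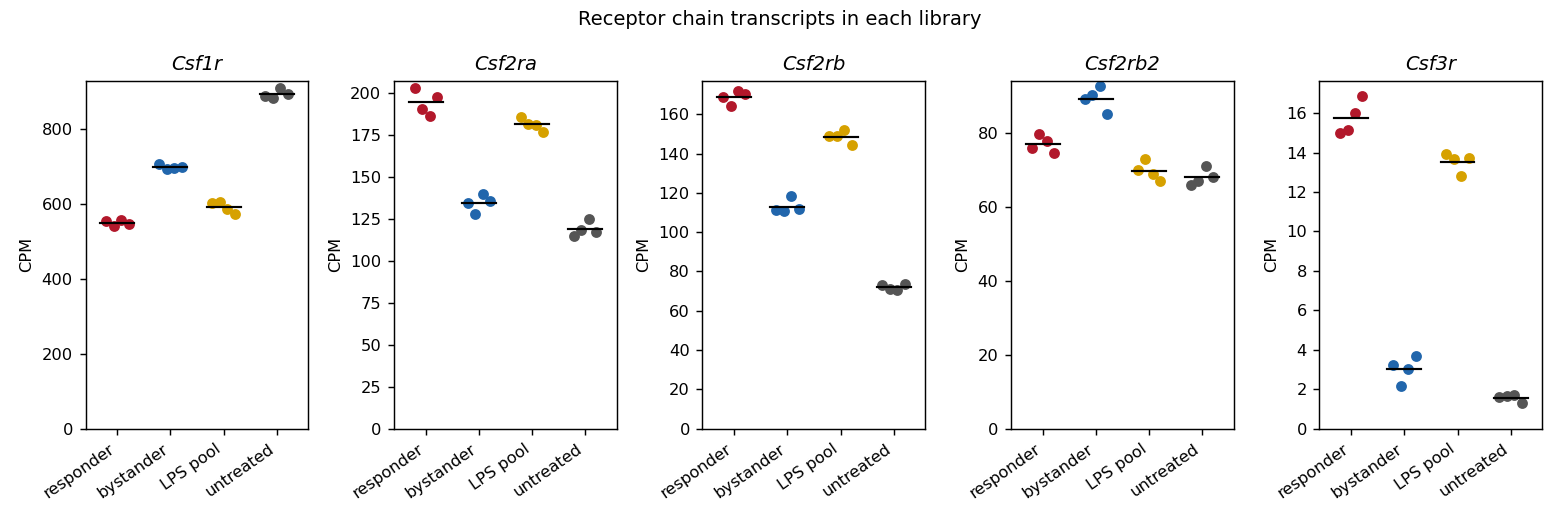
CPM (linear axes from 0) of the 5 receptor chain genes in each library of the 4 groups, with bars for group means. Csf1r is highest in the untreated libraries, Csf2ra, Csf2rb and Csf3r in the responder libraries, and Csf2rb2 in the bystander libraries.

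Each gated group was also set against the ungated LPS pool. In responders against the LPS pool, 5 members were higher, Csf1r was lower and Csf2 and Csf3 were not called, with 25.5% of all genes called (16% higher and 9.49% lower). The libraries of 7 members did not overlap, against 23.6% of all genes. The differences were small: Csf1 was 1.22-fold higher (adjusted p = 2.26e-13), Csf2rb 1.14-fold higher (adjusted p = 1.31e-07), Csf2rb2 1.1-fold higher (adjusted p = 0.00156), Csf2ra 1.07-fold higher (adjusted p = 0.00433) and Csf1r 1.08-fold lower (adjusted p = 1.75e-05). Scaled by library totals alone, Csf2ra (adjusted p = 0.257), Csf2rb2 (0.0611) and Csf3r (0.147) were not called, and Csf2ra was not called without the 6 libraries with neural genes (0.157). The Csf3r difference, 1.16-fold at adjusted p = 0.0463, lost its call whenever any single library of either group was left out (adjusted p 0.0524 to 0.162). Csf3 was 1.13-fold higher with adjusted p = 0.558 although its libraries did not overlap. Its adjusted p was 2.65e-08 when only these 2 groups were fitted, which leaves the split bystander libraries out of the estimate of spread. In bystanders against the LPS pool all 8 members were called, with 67% of all genes called (34.1% higher and 32.9% lower), and none of the 8 overlapped, against 59.4% of all genes without overlap. Csf1 (1.34-fold), Csf2rb2 (1.28-fold) and Csf1r (1.18-fold) were higher in bystanders, and Csf3 (70.5-fold), Csf2 (64.7-fold from the fit), Csf3r (4.39-fold), Csf2ra (1.35-fold) and Csf2rb (1.31-fold) were lower. Without bystander 3 and 4 the log2 difference was -8.86 for Csf3 and -8.29 for Csf2, against -6.14 and -6.02 with all libraries.

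Levels were compared between genes per kilobase of annotated exon. In responders Csf3 stood first at 915 CPM per kilobase, followed by Csf1r at 95.3, Csf2ra at 67.6, Csf1 at 36.6, Csf2rb at 23.2, Csf2rb2 at 16.3, Csf2 at 14.1 and Csf3r at 4.36. In untreated cells Csf1r stood first at 155 CPM per kilobase, followed by Csf2ra at 41.4, Csf2rb2 at 14.4, Csf2rb at 9.91, Csf1 at 7.92, Csf3 at 1.70, Csf3r at 0.432 and Csf2 at 0.0743. Bystanders kept Csf1r first, at 121 CPM per kilobase, with Csf1 at 40.4 and Csf3 at 10.1. The exon lengths are those of all annotated exons and not of the transcripts in these cells.

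On GRCm38, Csf2 (chr11:54247270-54249899) and Csf3 (chr11:98700183-98703631) lie on chromosome 11 but far apart, whereas Csf2rb (chr15:78325800-78351001) and Csf2rb2 (chr15:78282507-78305721) are adjacent. Csf1 lies at chr3:107741048-107760469, Csf1r at chr18:61105572-61131139, Csf2ra at chr19:61217191-61228461 and Csf3r at chr4:126023441-126044975.

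Other genes of the pathway were taken from a list of 53, of which 50 were tested; the genes Il3, Il5 and Il5ra had at most 1 read in any library. In responders against bystanders 30 rose, 18 fell and 2 were not called, with a median log2 fold of 0.25 against -0.01 for all genes, of which 34.7% were called higher and 35.3% lower. In the LPS pool against untreated cells 34 rose and 11 fell, with a median of 0.62 against -0.03 for all genes, of which 34.1% were called higher and 37.8% lower. Scaled by library totals alone, which shifts the median of all genes to -0.20 and -0.36 in these comparisons, the counts became 24 higher and 23 lower for responders against bystanders, and 29 higher and 20 lower for the LPS pool against untreated cells.

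The other ligands were scarce. Il34, whose product is another ligand of CSF1R, had at most 20 reads in a library, with mean levels of 0.230 CPM in responders, 0.605 CPM in bystanders, 0.291 CPM in the LPS pool and 0.507 CPM in untreated cells. Il3ra, the alpha chain of the IL-3 receptor, averaged 30.3 ± 2.29 CPM in responders and 22.8 ± 0.85 CPM in bystanders (adjusted p = 1.76e-09), and 29.2 ± 0.87 CPM in the LPS pool and 17.9 ± 1.07 CPM in untreated cells (adjusted p = 6.81e-17). Jak2, the kinase bound to the beta chains, averaged 162 ± 1.71 CPM in responders and 189.7 ± 1.79 CPM in bystanders (1.17-fold lower; adjusted p = 1.61e-12), and 135 ± 1.42 CPM in the LPS pool and 24.5 ± 0.91 CPM in untreated cells (5.48-fold higher; adjusted p = 2.79e-57). It shared with Csf1 the order of bystander, responder, LPS pool, untreated. Stat5a and Stat5b, the STAT factors below the GM-CSF receptor, differed by small folds: the mean of Stat5a was 9.97 CPM in responders and 11.0 CPM in bystanders (adjusted p = 0.115), and that of Stat5b was 31.7 CPM in responders and 34.2 CPM in bystanders (1.08-fold lower; adjusted p = 0.0401), a call lost with DESeq2 size factors and without the 6 libraries with neural genes. Scaled by library totals alone, both were called lower in responders. In the LPS pool Stat5a averaged 10.1 CPM, against 11.8 CPM in untreated cells (1.16-fold lower; adjusted p = 0.0137, lost without the libraries with neural genes at 0.0717). Stat5b averaged 30.5 CPM in the LPS pool and 36.2 CPM in untreated cells (1.18-fold lower; adjusted p = 2.94e-05).

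Of the 11 listed STAT5 or STAT3 target and feedback genes, all 11 rose in the LPS pool against untreated cells, with a median log2 fold of 2.05; scaled by library totals alone 10 rose and Ccnd2 fell. In that comparison 34.1% of all genes were higher and 37.8% lower. In responders against bystanders 8 of them were higher and 3 lower (7 and 3 by library totals alone), against 34.7% and 35.3% of all genes. Socs3, a feedback inhibitor of cytokine receptors, averaged 281 ± 7.34 CPM in responders and 37.2 ± 3.58 CPM in bystanders (7.47-fold; adjusted p = 1.02e-27). Socs1, an inhibitor of JAK kinases, ran opposite, with 13.2 ± 0.46 CPM in responders and 80.2 ± 3.45 CPM in bystanders (6.06-fold lower; adjusted p = 4.06e-45). The 2 other lower genes were the cyclin genes Ccnd1 (1.08-fold) and Ccnd2 (1.59-fold). Cish, a direct STAT5 target, averaged 8.15 ± 0.38 CPM in responders and 6.98 ± 0.42 CPM in bystanders (1.17-fold; adjusted p = 0.0419, not called by library totals alone at 0.757), and 7.41 ± 0.90 CPM in the LPS pool and 0.289 ± 0.064 CPM in untreated cells (25.5-fold; adjusted p = 8.68e-32). In bystanders against untreated cells 10 of the 11 rose, against 34.1% of all genes. Socs1 led at 60.9-fold, followed by Cish at 23.9-fold (adjusted p = 2.12e-31) and Socs3 at 12.7-fold.

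Of the 21 kinases, adaptors and phosphatases, 12 were higher and 9 lower in responders than in bystanders, against 34.7% and 35.3% of all genes, and 10 were higher and 10 lower by library totals alone. Cblb, a ubiquitin ligase, averaged 16.3 ± 1.40 CPM in responders and 47.9 ± 1.27 CPM in bystanders (2.94-fold lower; adjusted p = 2.77e-35).

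Of the 8 transcription factors, 4 were higher, 3 lower and 1 not called in responders against bystanders, where 70% of all genes were called. By library totals alone 3 were higher and 4 lower. Spi1 encodes PU.1, the factor that acts at Csf1r, Csf2ra and Csf3r, and averaged 474 ± 7.08 CPM in responders and 241 ± 3.57 CPM in bystanders (1.96-fold; adjusted p = 2.69e-46), and 452 ± 6.15 CPM in the LPS pool and 276 ± 3.76 CPM in untreated cells (1.64-fold; adjusted p = 1.89e-39). Cebpa, a factor of myeloid progenitors, was 3.20-fold lower in the LPS pool than in untreated cells (adjusted p = 6.59e-25) and 4.10-fold lower in bystanders than in untreated cells (adjusted p = 8.01e-29). Cebpb was the most raised listed gene with at least 5 CPM in responders against the LPS pool, at 1.70-fold (adjusted p = 0.000221).

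Of the 4 factors that bind or act on AU-rich or stem-loop elements, 3 were higher and 1 lower in responders than in bystanders, also by library totals alone, in a comparison that called 70% of all genes. Zfp36 encodes tristetraprolin and averaged 385 ± 9.17 CPM in responders and 226 ± 2.94 CPM in bystanders (1.70-fold; adjusted p = 2.54e-38), and 343 ± 10.4 CPM in the LPS pool and 33.0 ± 1.11 CPM in untreated cells (10.4-fold; adjusted p = 7.01e-68). Zc3h12a, which encodes the ribonuclease Regnase-1, averaged 166 ± 2.22 CPM in responders and 14.0 ± 2.87 CPM in bystanders (11.4-fold; adjusted p = 1.56e-16), and 13.0 ± 0.65 CPM in untreated cells. Bystanders were not called different from untreated cells for Zc3h12a (adjusted p = 0.227) but were for Zfp36 (6.87-fold higher; adjusted p = 1.07e-62).

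**Figure D5:**
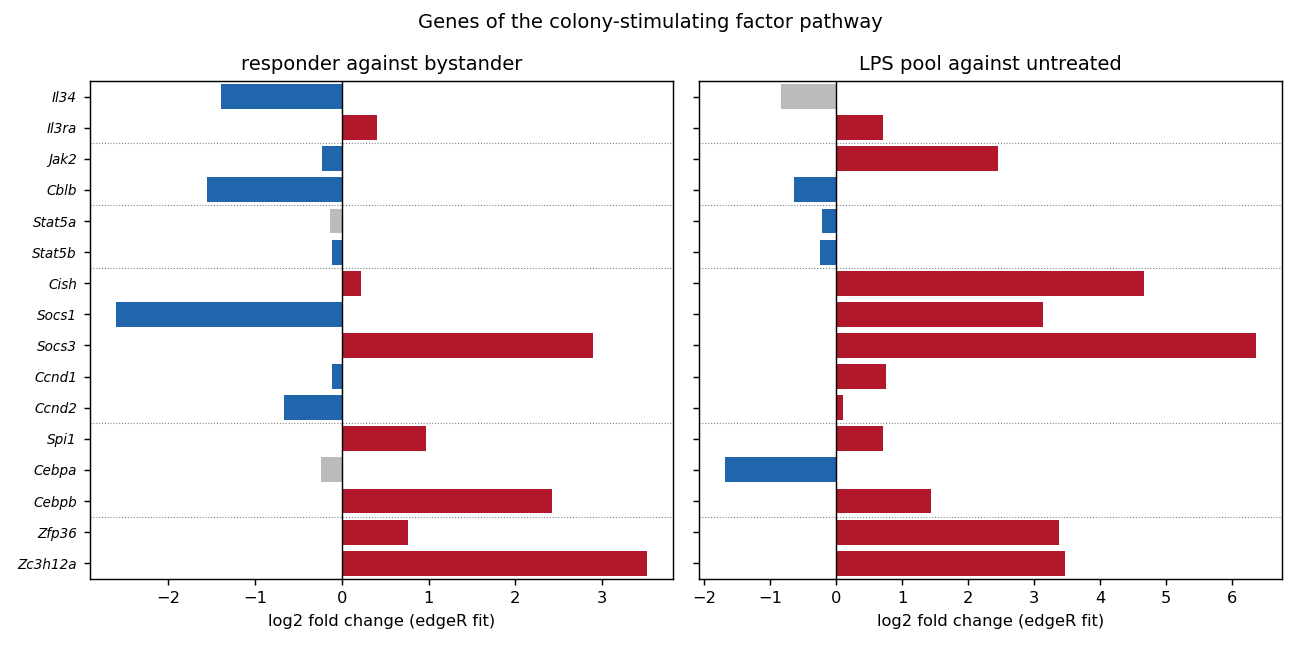
Log2 fold changes from the edgeR fit (x axis) of the pathway genes named in the text (y axis, dotted lines between roles) for responders against bystanders and for the LPS pool against untreated cells; red bars were called higher, blue bars called lower and grey bars not called. For responders against bystanders, Zc3h12a and Socs3 have the longest bars to the right and Socs1 the longest to the left.

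For each member the 3 most alike genes were sought among 9545 genes of at least 5 CPM, by the root-mean-square difference of their 4 group means of log2 CPM after centring each gene on its own mean. For Csf3 these were Il1a (0.09), Il1b (0.11) and Lcn2 (0.18), and for Csf2 Cxcl2 (0.20), Saa3 (0.36) and Slc7a2 (0.37). For Csf3r they were Tnfaip3 (0.05), Thbs1 (0.10) and Fabp3 (0.12), and for Csf1 they included Fndc3a (0.04) and Igsf9 (0.08). Those for Csf1r included Ipo11 and Cbfb, each at 0.01. Those for Csf2ra were to Sirt6, Tagln2 and Zbtb7a, those for Csf2rb to Rrbp1, Lrch1 and Zc2hc1a, and those for Csf2rb2 to Dis3l2, Ttbk2 and Decr2. Among the members themselves, Csf2ra and Csf2rb were the closest pair at 0.21, while Csf2 and Csf3 differed by 1.11. The log2 values carried an added offset of 2 counts, scaled to library size. Csf2 lay near that offset, at 0.144 CPM in bystanders and 0.0595 CPM in untreated cells. The distances of Csf2, and the genes found most like it, therefore depend on the offset. The measure covers 4 group means that share libraries and scaling, and is a description of pattern only.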

How the data were processed

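What the authors deposited is a single matrix of unnormalized counts, with Entrez genes by 16 libraries. The submitters' processing notes name the mouse build GRCm38 (mm10) and the tools featureCounts 2.1.1, HISAT2 2.2.2, fastp 1.1.0 and cutadapt 3.7. The sources used here do not give the annotation, strandedness or handling of multi-mapping reads. RefSeq symbols matched 25275 of 27179 genes, with 99.6% of the counts, and 0 columns belonged to other samples. Per the labels, RNA integrity numbers of the LPS-treated libraries were above 7.1.

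The model was a fit of edgeR 4.0.16 under R 4.3.3 (filterByExpr, trimmed mean of M-values scaling, robust quasi-likelihood, 1 mean per group, all 16 libraries, no covariate). The 6 contrasts were tested two-sided, with Benjamini-Hochberg adjustment over 12589 genes, after a test on simulated data. The members, the gene lists and the tests were chosen with earlier results of these data known. Pathway genes were named by a fixed rule: per comparison up to 3 highest and 3 lowest folds among called genes with at least 5 CPM, plus Il34, Jak2, Stat5a, Stat5b, Cish and Spi1. A few genes that meet the naming rules are not reported here. Il3ra, Zfp36, Ccnd1 and Ccnd2 were named after their values were seen, as was Csf2rb's share. The limit of 4 CPM on neural genes was also set after seeing the data. Chi-square divided by its degrees of freedom lay between 1.61 and 3.13 over 24 replicate pairs, above sampling noise for each pair. Deviations from the group means correlated above 0.1 for all 4 same-numbered pairs of bystander and LPS pool libraries (0.391 to 0.475) and of responder and untreated libraries (0.169 to 0.605), but not for all pairs of the other 4 comparisons (-0.468 to 0.288); the labels give the numbers without saying what they share. Counting intervals are exact 95% intervals for summed reads and cover counting error only. Alternatives were DESeq2 1.42.0, other scalings, no filter, 2 groups alone, a replicate block and libraries left out.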

Additional observations from a re-analysis of the deposited data

Results flagged for a closer look

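Csf2rb in bystander replicate 3 stood at 118 CPM, apart from the other 3 bystander libraries at 111 to 112 CPM. The gap to the nearest library was a larger part of the group's range than Dixon's 95% critical value for 4 libraries allows, which chance exceeds in about 1 of 20 groups, and 32 groups of 4 values were examined. The library still lay far below the lowest responder library, at 164 CPM. It also held the fibroblast genes Col1a1, Col1a2, Col3a1, Dcn and Pdgfra at a summed 76.8 CPM, against 1.94 to 6.99 CPM in the other bystander libraries. Replicate 3 also had the highest sum in responders (30.2 CPM), in the LPS pool (105 CPM) and in untreated cells (30.8 CPM). The part of these genes in the Csf2rb value was not tested.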

How the results depend on the processing

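Of 48 member results (8 genes in 6 comparisons), 791 values were computed under 25 other settings. In 752 the direction and the side of the threshold held, in 22 a call was lost, in 7 a call was gained and in 10 the direction turned, and 36 results kept both in every setting run. With library totals alone, 3 of the 6 members called in responders against the LPS pool were still called, and Csf2ra, Csf2rb2 and Csf3r were not. That scaling turned the log2 folds of Csf2rb2 in the LPS pool (-0.29) and in responders (-0.20) against untreated cells, of Csf2ra in bystanders against untreated cells (-0.013) and of Csf2 in responders against the LPS pool (-0.033). It moved the share of calls that were higher from 49.5% to 27.8% for responders against bystanders, from 47.4% to 21.6% for the LPS pool and from 50.9% to 27.5% for bystanders against untreated cells. For responders it moved from 48.7% to 21.7% against untreated cells and from 62.7% to 30.6% against the LPS pool, and for bystanders against the LPS pool from 50.9% to 68.4%. The cause was not tested.

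Csf2 in bystanders against untreated cells turned to -1.21 in the 10 libraries without neural genes (adjusted p = 0.427) and to -0.83 without bystander 3 and 4 (adjusted p = 0.597). Csf2 in responders against the LPS pool was -0.018 without the neural libraries and -0.024 to 0.055 when single libraries were left out. When single libraries were left out, 8 members were called in responders against bystanders, 7 in the LPS pool against untreated cells, 8 in responders against untreated cells, 7 to 8 in bystanders against untreated cells, 5 in responders against the LPS pool and 8 in bystanders against the LPS pool. In responders against the LPS pool, Csf2ra lost its call without the neural libraries (adjusted p = 0.157). The 6 libraries with neural genes, fitted alone, hold a single responder and a single untreated library, each assumed to vary like the rest, and calls lost or gained there say little.

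Same-numbered libraries correlated above 0.1 in all pairs only for bystanders with the LPS pool and for responders with untreated cells. Within each of these 2 comparisons, the libraries with neural genes carried the same numbers. The labels state no pairing, so the check cannot establish one. The replicate block changed no member's call in those 2 comparisons. In the other 4 comparisons the correlations did not hold for all pairs. The summed fibroblast genes were nevertheless highest in replicate 3 of every group and lowest in replicate 2. Replicate 3 held 30.2 CPM in responders, 76.8 CPM in bystanders, 105 CPM in the LPS pool and 30.8 CPM in untreated cells. What same-numbered libraries share is not known from the labels. With the block, 5 members were called in responders against the LPS pool, where Csf3r lost its call (adjusted p = 0.0517), and 8 in responders against bystanders, 7 in the LPS pool against untreated cells, 8 in responders against untreated cells, 7 in bystanders against untreated cells and 8 in bystanders against the LPS pool. Depth limited Csf2 most, since bystander and untreated libraries held 0 to 7 reads of it.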
